A study of Homo sapiens with 9 samples.

Results

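The RNA of the proteasome was followed here through 46 genes, taken from the deposited gene count table as every row named PSMA to PSMG plus a number, except PSMB8 and PSMB9. These 46 rows, of 59453 rows in the table, were the 7 alpha and 7 beta genes of the standard core, 9 genes of the cap base, 8 of the cap lid, 4 core chaperones, 3 base chaperones, 5 genes for other caps and an inhibitor, and 3 special core subunits (PSMA8, PSMB10 and PSMB11). The cells were MDA-MB-231, an established human triple-negative breast cancer line grown as 1 line in flasks, with 3 untreated libraries, 3 libraries after 8 h and 3 after 24 h of TEPA, a copper chelator. The labels of this line give TEPA at 8 mM. The methods of the study give 4 mM in the RNA sequencing section, and both 4 and 8 mM in the general section. The dose is therefore uncertain. There was a single untreated group for both times, and nothing states that replicates came from separate cultures, so p-values measure only the spread between these libraries. The libraries held from 34633755 to 49342659 counts each, and 218487 to 312999 of these fell on the 46 genes. Levels are given as CPM, read counts brought to a common library size with factors from the trimmed mean of M values (TMM). In bulk RNA, less RNA of a gene per cell cannot be told apart from a smaller share of cells that express it.

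The proteasome is the protease that degrades proteins tagged with ubiquitin. Its barrel-shaped core is built of outer alpha rings, which gate the entrance, and inner beta rings, which carry the catalytic sites. The regulatory cap binds at the end of the core: its base holds the ATPases that unfold substrates, and its lid holds the deubiquitinase that removes the ubiquitin chain. Dedicated chaperones assemble the core and the base, and other caps such as PA28 can take the place of the ATPase cap. Tumour cells rely on the proteasome, and its beta subunit PSMB5 is the target of bortezomib.

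The libraries carried the RNA of the labelled line. VIM, CD44, AXL and CAV1, mesenchymal and invasive-cell genes known to be high in this line, averaged 3672, 858, 684 and 707 CPM in untreated cells. ESR1 and PGR, the hormone receptors absent from triple-negative tumours, averaged 0.155 and 0 CPM, and the epithelial genes CDH1 and EPCAM 0.624 and 1.12 CPM. ERBB2 was at 81.4 CPM. Of the 5 markers of blood, endothelium and liver, CD3E had no counts, PTPRC, VWF and ALB did not exceed a mean of 0.0675 CPM in any group, and only PECAM1 passed the filter, at 3.59, 1.06 and 8.13 CPM in untreated, 8 h and 24 h cells.

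Of the 46 genes, 44 passed the filter on low counts. PSMA8, the testis alpha subunit, had no count in any library, and PSMB11, the thymus beta subunit, had 1 count in a single 24 h library. A level of 0 in the smallest library allows up to 3 counts there. Among the 44 tested genes, changes were small and went both ways. At 8 h, 9 genes rose and 12 fell by edgeR's quasi-likelihood test at a Benjamini-Hochberg adjusted p under 0.05, which is 20.5% and 27.3% of them, beside 25.2% and 24.5% of all 16556 genes tested. At 24 h, 6 rose and 20 fell, or 13.6% and 45.5%, beside 25.7% and 26.8% of all genes. With libraries scaled by total counts alone, the 24 h split was 9 higher and 14 lower, or 20.5% and 31.8%, beside 31.4% and 21.5% of all genes. Under both scalings the share of members that rose at 24 h was below that of all genes, and the share that fell was above it. Between 24 h and 8 h, 7 were higher and 19 lower (15.9% and 43.2%, beside 26.0% and 28.8% of all genes), and this split was 13 and 15 with total counts alone (29.5% and 34.1%, beside 33.2% and 22.5% of all genes).

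Few of these changes were large. When the log2 fold change also had to exceed 0.5 in size, 1 gene rose and 0 fell at 8 h, where 10.1% and 7.67% of all genes did, and 0 rose and 1 fell at 24 h, where 10.2% and 8.46% did. Between the times, 1 was higher and 2 lower under this rule, against 10.4% and 10.8% of all genes. The median log2 fold change of the 44 genes was -0.0003 at 8 h and -0.0873 at 24 h, beside -0.0013 and 0.0023 over all genes. With total counts alone the 24 h medians were -0.0277 for the members and 0.062 for all genes. The summed level of the 46 genes was 6460, 6703 and 6669 CPM in the untreated libraries, 6592, 6654 and 6629 CPM at 8 h, and 6137, 6271 and 6072 CPM at 24 h. The 24 h sums all lay below the untreated ones, and their mean fell by 6.82%, while the 8 h sums lay within the untreated range. The share of counts on the 46 genes ran from 0.644% to 0.659% in untreated cells, from 0.648% to 0.653% at 8 h and from 0.631% to 0.64% at 24 h.

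**Figure D1:**
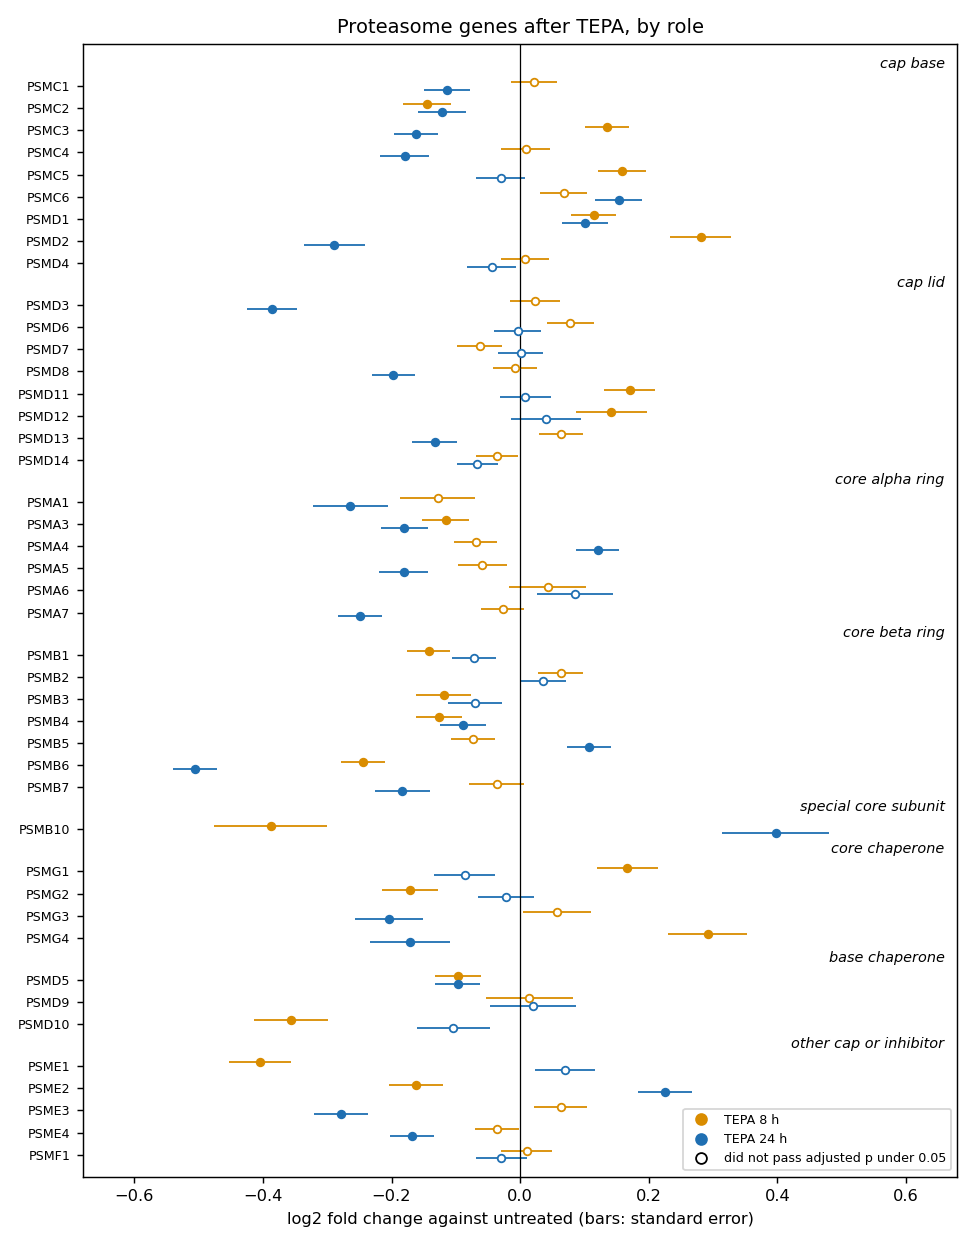
Log2 fold change against untreated cells (x axis) of 43 of the 44 tested proteasome genes (rows, grouped by role) after 8 h (orange) and 24 h (blue) of TEPA, with standard errors as bars and filled points for adjusted p under 0.05. PSMA2, with 8 to 45 counts per library, is left out; PSMB6 lies farthest left at 24 h and PSMB10 lies on opposite sides at the 2 times.

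The 3 catalytic subunits of the standard core took different directions. PSMB6, the caspase-like site, was at 215, 211 and 212 CPM in the untreated libraries, 179, 182 and 178 CPM at 8 h, and 145, 152 and 152 CPM at 24 h. The 3 groups were fully apart, in descending order. It fell by 0.24 ± 0.03 (SE) on the log2 scale at 8 h (edgeR adjusted p = 2.59e-05) and by 0.51 ± 0.03 at 24 h (adjusted p = 8.72e-09), so that its level decreased by 15.6% at 8 h and decreased by 29.6% at 24 h. The step from 8 h to 24 h also passed (adjusted p = 9.84e-06). PSMB7, the trypsin-like site, was at 235, 259 and 252 CPM untreated, 239, 248 and 240.1 CPM at 8 h, and 218, 228 and 210.3 CPM at 24 h. Its 8 h libraries lay within the untreated range and its 24 h libraries below it, with a fall of 0.18 ± 0.04 at 24 h (adjusted p = 0.00191). PSMB5, the chymotrypsin-like site, was at 227, 223 and 224 CPM untreated, 211, 219 and 210.2 CPM at 8 h, and 239, 247 and 239 CPM at 24 h. Its 8 h libraries all lay below the untreated ones, but the fold change of -0.07 ± 0.03 did not pass (adjusted p = 0.0856). At 24 h PSMB5 rose by 0.11 ± 0.03 (adjusted p = 0.0148), a gain of 7.71%, and without untreated replicate 3 this call was lost (0.10, adjusted p = 0.0528).

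**Figure D2:**
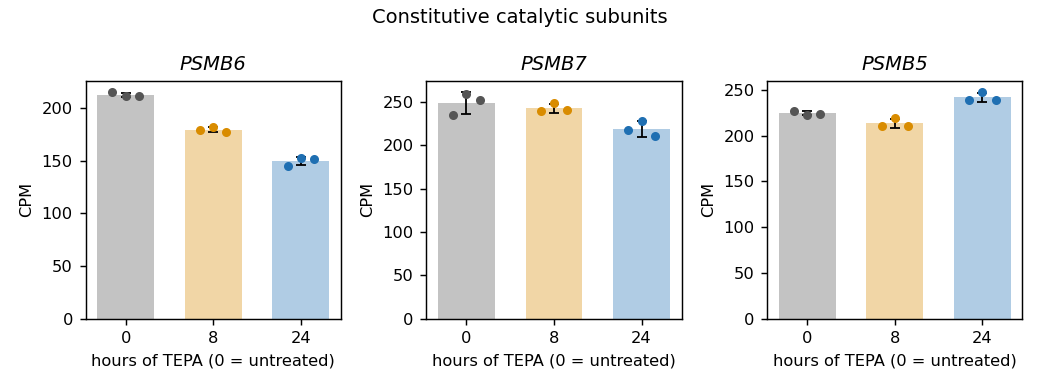
CPM (y axis) of the 3 standard catalytic subunits at 0 (untreated), 8 and 24 h of TEPA (x axis), with bars for group means, black lines for SD and points for the 3 libraries of each group. PSMB6 steps down from 215, 211 and 212 CPM to 145, 152 and 152 CPM, while PSMB5 at 24 h lies above its untreated libraries.

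These subunits lie at different places in GRCh38. PSMB6 is on chromosome 17 at 4796144 to 4798502 on the plus strand with 6 exons in its canonical transcript, PSMB7 on chromosome 9 at 124353465 to 124415444 on the minus strand with 8, and PSMB5 on chromosome 14 at 23016543 to 23035230 on the minus strand with 3. None of them shares exon bases with another gene on its strand. Of the 7 genes of the standard beta ring, 4 fell and 0 rose at 8 h, namely PSMB6, PSMB1 (-0.14), PSMB4 (-0.13) and PSMB3 (-0.12). That is 57.1% lower and 0% higher, beside 24.5% and 25.2% of all genes. PSMB3 lost its call without untreated replicate 3 (adjusted p = 0.0587), 8 h replicate 1 (0.0897) or 8 h replicate 2 (0.066), and with upper-quartile factors (0.0524). At 24 h PSMB6, PSMB7 and PSMB4 fell and PSMB5 rose, or 42.9% and 14.3%, beside 26.8% and 25.7% of all genes. The call of PSMB4 at 24 h, at a log2 fold change of -0.09, sat on the threshold: it held in 1 of 18 other settings (24 h replicate 2 left out), and its adjusted p was 0.202 without 24 h replicate 3 and 0.482, at a fold change of -0.03, with total counts alone. PSMB2 passed in neither comparison, at 0.06 and 0.04.

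The alpha ring, which gates the core, was lower at 24 h in 4 of its 7 genes and higher in 1. That is 57.1% and 14.3%, beside 26.8% and 25.7% of all genes. PSMA7 was at 421, 443 and 430.2 CPM untreated, 419, 421 and 429 CPM at 8 h, and 359, 363 and 367 CPM at 24 h. All 24 h libraries lay below the others, and it fell by 0.25 ± 0.03 at 24 h (adjusted p = 1.51e-05). Its 8 h change of -0.03 did not pass, and 24 h differed from 8 h by -0.22 (adjusted p = 4.33e-05). PSMA1 (-0.26), PSMA5 (-0.18) and PSMA3 (-0.18) also fell at 24 h, and PSMA3 already at 8 h (-0.12), a call lost without 8 h replicate 3 (adjusted p = 0.0588). PSMA4 went the other way, from 146, 147 and 147 CPM untreated and 139, 139 and 141 CPM at 8 h to 161, 160.1 and 156 CPM at 24 h. Its 24 h libraries were all above the rest, a rise of 0.12 ± 0.03 (adjusted p = 0.00631), whereas its 8 h change of -0.07 did not pass. PSMA6 passed in neither comparison, at 0.04 and 0.09. PSMA2 had the largest fold change of all members, 1.59 ± 0.31 at 8 h (adjusted p = 0.000473), but from 0.213, 0.328 and 0.33 CPM untreated to 0.825, 1.18 and 0.653 CPM at 8 h and 0.255, 0.278 and 0.278 CPM at 24 h. These are 8 to 45 counts per library, and all 1434 bases of its canonical exons also belong to another annotated gene on the same strand, so the level of PSMA2 is uncertain. PSMA6, PSMA1, PSMB10 and PSMD9 share 81.4%, 67%, 56.1% and 28.8% of their canonical exon bases in the same way. Without these 5 genes, 8 rose and 11 fell at 8 h, where 25.2% and 24.5% of all genes did. At 24 h, 5 rose and 19 fell, where 25.7% and 26.8% did.

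In the cap base, which unfolds substrates, 4 of 9 genes rose and 1 fell at 8 h, and 2 rose and 5 fell at 24 h. At 8 h this was 44.4% and 11.1%, beside 25.2% and 24.5% of all genes. The 24 h shares were 22.2% and 55.6%, beside 25.7% and 26.8%. PSMD2, the large scaffold subunit that also docks ubiquitin-like factors, showed the widest swing, at 285, 329 and 324 CPM untreated, 378, 383 and 377 CPM at 8 h, and 257, 262 and 248 CPM at 24 h. The 3 groups did not overlap, with the 8 h libraries on top and the 24 h libraries at the bottom. PSMD2 rose by 0.28 ± 0.05 at 8 h (adjusted p = 0.000141) and fell by 0.29 ± 0.05 at 24 h (adjusted p = 9.54e-05) against untreated cells, and 24 h differed from 8 h by -0.57 ± 0.05 (adjusted p = 7.79e-08). PSMC3, one of the ATPases, did likewise on a smaller scale, at 312, 325 and 324 CPM untreated, 345, 355 and 356 CPM at 8 h, and 282, 293 and 284 CPM at 24 h. It rose by 0.13 ± 0.03 and fell by 0.16 ± 0.03 at the 2 times (adjusted p = 0.00398 and 0.000923). The ATPase PSMC5 rose at 8 h (0.16, adjusted p = 0.00256) and at 24 h had a fold change of -0.03 that did not pass. PSMD1, the other large scaffold subunit, rose at both times, by 0.11 ± 0.04 and 0.10 ± 0.04 (adjusted p = 0.0139 and 0.0244). Its 8 h call was lost without 8 h replicate 2 (0.0656), and its 24 h call without untreated replicate 1 (0.0777), 24 h replicate 1 (0.0657) or 24 h replicate 2 (0.0693), and with no filter (0.0595).

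The remaining ATPases went in both directions. PSMC6 was at 111, 118 and 113 CPM untreated, 122, 119 and 118 CPM at 8 h, and 127, 126 and 126 CPM at 24 h, a rise of 0.15 ± 0.04 at 24 h (adjusted p = 0.00227) after an 8 h change of 0.07 that did not pass. PSMC2 fell at both times (-0.14 and -0.12), and its 24 h call was lost without untreated replicate 3 (adjusted p = 0.0726) and with total counts alone (-0.06, 0.143). PSMC4 (-0.18) and PSMC1 (-0.11) fell at 24 h, and that of PSMC1 was lost without untreated replicate 2 (0.0623) or 24 h replicate 3 (0.0574), and with upper-quartile factors (0.0551) or total counts alone (-0.05, 0.185). The ubiquitin receptor PSMD4 passed in neither comparison, at 0.01 and -0.04. ADRM1, the other docked ubiquitin receptor, which is not among the 46 genes, was at 284, 301 and 295 CPM untreated, 338, 339.7 and 329 CPM at 8 h, and 266, 272 and 253 CPM at 24 h, and so rose by 0.19 ± 0.04 and fell by 0.15 ± 0.04 (adjusted p = 0.000511 and 0.00271).

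In the lid, which removes the ubiquitin chain, 2 of 8 genes rose and 0 fell at 8 h, and 0 rose and 3 fell at 24 h. At 8 h this was 25% and 0%, beside 25.2% and 24.5% of all genes. The 24 h shares were 0% and 37.5%, beside 25.7% and 26.8%. PSMD3 was at 175, 176 and 182 CPM untreated, 178, 182 and 181 CPM at 8 h, and 131, 143 and 133 CPM at 24 h. Untreated and 8 h libraries overlapped and the 24 h libraries lay far below both, a fall of 0.39 ± 0.04 (adjusted p = 7.21e-07), the largest among the cap base and lid genes of the name pattern at 24 h. PSMD8 (-0.20) and PSMD13 (-0.13) were the other lid genes of the pattern that fell at 24 h, and the call of PSMD13 was lost with total counts alone (-0.07, edgeR adjusted p = 0.0684). PSMD11 was at 152, 167 and 167 CPM untreated, 181, 181 and 183 CPM at 8 h, and 163, 166 and 159.9 CPM at 24 h, and rose at 8 h (0.17 ± 0.04, adjusted p = 0.00222). Its 24 h libraries overlapped the untreated ones, at a change of 0.01 that did not pass. PSMD12 rose by 0.14 at 8 h, but this call held in only 10 of 18 other settings and its adjusted p reached 0.192 without untreated replicate 1. It was also lost without untreated replicate 3 (0.0546), 8 h replicate 1 (0.19), 2 (0.0554) or 3 (0.0774), or 24 h replicate 1 (0.061). The replicate block (edgeR adjusted p = 0.0611) and total counts alone (0.0617) ended this call too. The deubiquitinase PSMD14 and its partner PSMD7 passed at neither time, nor did PSMD6, with log2 fold changes from -0.07 to 0.08. SEM1, the small lid subunit outside the name pattern, was at 52.6, 53.1 and 53.2 CPM untreated, 41.1, 40.7 and 41.3 CPM at 8 h, and 39.6, 39.8 and 40.1 CPM at 24 h. It fell by 0.37 ± 0.04 and 0.41 ± 0.04 (adjusted p = 1.94e-06 and 4.11e-07), more than any of the 8 lid genes at 8 h.

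By role, the summed levels separated cap and core at 8 h. The cap base summed to 1742, 1866 and 1858 CPM untreated and to 1946, 1979.8 and 1956 CPM at 8 h, a mean higher by 7.63%, and the lid sum was higher by 3.36%, or by 1.87% without untreated replicate 1. The beta ring summed to 1552, 1579 and 1585 CPM untreated and 1460.2, 1491 and 1467 CPM at 8 h, with a percent change of -6.28, and the alpha ring had one of -3.53. The 8 h libraries were thus all above the untreated ones for the base and the lid, and all below them for both core rings. Single genes followed less evenly. PSMC2 of the base fell at 8 h, and most genes of the lid and the alpha ring passed in neither direction. At 24 h these sums were lower than untreated by a percent change of -5.9 (base), -6.8 (lid), -10.3 (alpha ring) and -6.7 (beta ring), with no overlap except in the base, where 24 h replicate 2, at 1746 CPM, exceeded untreated replicate 1. No test was run on sums. They were made with TMM factors only, which ran from 1.02 to 1.039 at 24 h and from 0.9826 to 0.997 in untreated libraries. Scaling by total counts alone would therefore give smaller falls at 24 h.

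**Figure D3:**
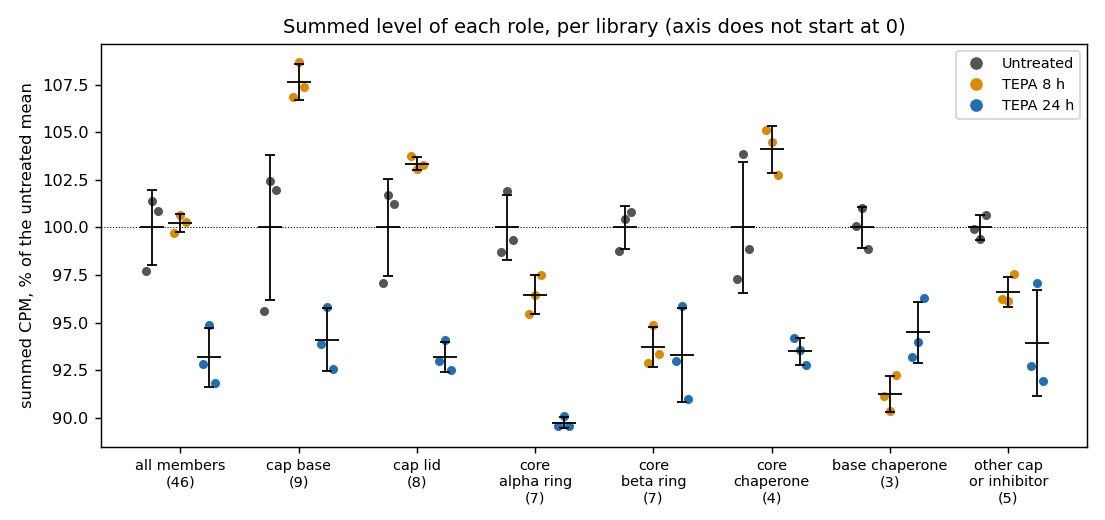
Summed CPM of each role as a percentage of its untreated mean (y axis, not starting at 0) for every library, with black lines for mean and SD and the number of genes in parentheses under each role on the x axis. At 8 h (orange) the cap base and lid lie above 100 and the core rings below, and at 24 h (blue) the mean of every role shown is below 100.

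The assembly chaperones also split. Of the 4 core chaperones, which pair and guide the alpha and beta subunits, PSMG4 was at 16.9, 17.5 and 17 CPM untreated, 20.7, 21.6 and 20.7 CPM at 8 h, and 16.2, 15.2 and 14.2 CPM at 24 h. Its 8 h libraries stood above all others, a rise of 0.29 ± 0.06 (adjusted p = 0.00098). Its fall of 0.17 ± 0.06 at 24 h (adjusted p = 0.0305) was lost without untreated replicate 2 (0.0846), untreated replicate 3 (0.0609), 24 h replicate 2 (0.066) or 24 h replicate 3 (0.128). It was also lost with upper-quartile factors (0.0665), total counts alone (-0.11, 0.142), DESeq2 (0.0623), no filter (0.0618) or only the 2 groups compared (0.0563), and held in 9 of 18 settings. PSMG1 rose at 8 h (0.17), PSMG2 fell at 8 h (-0.17), and PSMG3 fell at 24 h (-0.20). Of the 3 base chaperones, PSMD10 (gankyrin) was at 33.3, 32 and 32.3 CPM untreated, 26.6, 24.3 and 25.4 CPM at 8 h, and 29.4, 28.9 and 32.6 CPM at 24 h. It fell by 0.36 ± 0.06 at 8 h (adjusted p = 0.000101), with no overlap, and stood 0.25 ± 0.06 higher at 24 h than at 8 h (adjusted p = 0.00156). PSMD5 had -0.10 at both times, calls that held in 10 and 9 of 18 other settings. The 8 h call was lost without untreated replicate 2 (adjusted p = 0.0931), any of the 8 h libraries (0.0537 to 0.0786) or 24 h replicate 1 (0.0531). Upper-quartile factors (edgeR adjusted p = 0.067), no filter (0.0671) and the replicate block (0.0608) ended the 8 h call too. The 24 h call was lost without untreated replicate 2 (0.109), 24 h replicate 1 (0.0966) or 24 h replicate 2 (0.0621). It was also lost with total counts alone (-0.04, 0.385), upper-quartile factors (0.105), DESeq2 (0.0616), no filter (0.0909), only the 2 groups compared (0.0604) and the replicate block (0.0543). PSMD9 passed at neither time, at 0.01 and 0.02. POMP, the maturation factor of the core, fell at both times (-0.12 and -0.11, adjusted p = 0.0246 and 0.0277). Its 8 h call was lost without untreated replicate 2 (0.0706) or 8 h replicate 3 (0.105). Its 24 h call was lost without untreated replicate 2 (0.102), untreated replicate 3 (0.0581) or 24 h replicate 2 (0.11), and with upper-quartile factors (0.0923) or total counts alone (0.303).

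Of the 5 genes for other caps and an inhibitor, 2 were higher at 24 h than at 8 h and 2 were lower. That is 40% in each direction, where 26.0% of all genes were higher and 28.8% lower. PSME1 and PSME2 encode PA28 alpha and beta, which together form a cap that works without ATP and, like PSMB8, PSMB9 and PSMB10, are induced by interferon gamma. PSME1 was at 111, 98.4 and 108 CPM untreated, 78.8, 80.3 and 80.1 CPM at 8 h, and 109.7, 116 and 106 CPM at 24 h. It fell by 0.40 ± 0.05 at 8 h (adjusted p = 4.75e-06), and at 24 h its libraries overlapped the untreated ones (0.07, adjusted p = 0.228). PSME2 was at 106, 97 and 98.4 CPM untreated, 88.2, 90.9 and 90.3 CPM at 8 h, and 114, 121 and 117 CPM at 24 h. Its 3 groups were apart, a fall of 0.16 ± 0.04 at 8 h (adjusted p = 0.00452) and a rise of 0.23 ± 0.04 at 24 h (adjusted p = 0.000274). PSME3, which forms the nuclear PA28 gamma cap, did not share this course, at 279, 305 and 303 CPM untreated, 311, 307 and 309 CPM at 8 h, and 238, 256 and 237 CPM at 24 h. It fell at 24 h by 0.28 ± 0.04 (adjusted p = 3.9e-05), as did PSME4, the PA200 cap (-0.17), while the inhibitor PSMF1 passed at neither time (0.01 and -0.03).

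PSMB10, the interferon-inducible replacement of PSMB7 in the immunoproteasome, moved as PSME2 did. It was at 13.6, 11.7 and 11.9 CPM untreated, 9.02, 9.85 and 9.55 CPM at 8 h, and 15.5, 18.2 and 15.3 CPM at 24 h, with the groups apart. It fell by 0.39 ± 0.09 at 8 h (adjusted p = 0.00176), rose by 0.40 ± 0.08 at 24 h (adjusted p = 0.000821), and differed by 0.79 ± 0.09 between the times (adjusted p = 1.42e-06), although 56.1% of its exon bases are shared with another gene. PSMB8 and PSMB9, which replace PSMB5 and PSMB6 and were set aside by the naming rule, had the same order of groups. PSMB9 was at 32.9, 26.7 and 30.4 CPM untreated, 21.8, 21.6 and 19.8 CPM at 8 h, and 39.4, 41.3 and 36.3 CPM at 24 h, a fall of 0.51 ± 0.07 and a rise of 0.38 ± 0.07 (adjusted p = 4.37e-05 and 0.000321). PSMB8 was at 65, 63.6 and 61.8 CPM untreated, 54.5, 59.6 and 60.4 CPM at 8 h, and 71.3, 75.9 and 71.1 CPM at 24 h, a fall of 0.13 ± 0.05 and a rise of 0.20 ± 0.05 (adjusted p = 0.036 and 0.00219). The 8 h call of PSMB8 was lost without untreated replicate 1 (0.0788), untreated replicate 2 (0.052) or 8 h replicate 1 (0.15), and with upper-quartile factors (0.0537).

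**Figure D4:**
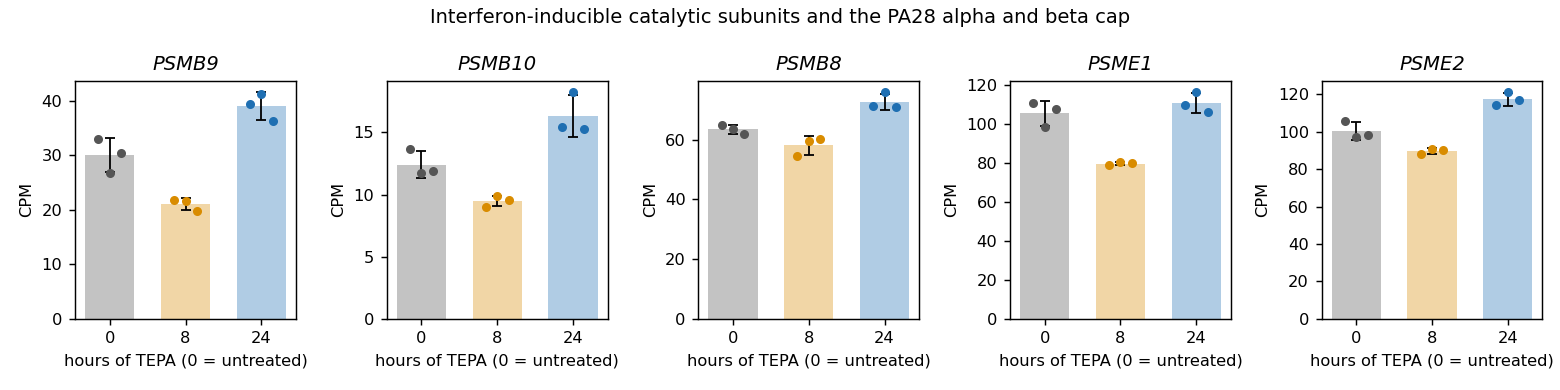
CPM (y axis) of the interferon-inducible catalytic subunits PSMB9, PSMB10 and PSMB8 and of PSME1 and PSME2 at 0 (untreated), 8 and 24 h of TEPA (x axis), with bars for means, black lines for SD and points for the 3 libraries per group. In each panel the 8 h libraries are lowest, and the 24 h libraries lie above the untreated ones except in PSME1.

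Since PSMB10, PSME1 and PSME2 all fell at 8 h and were higher at 24 h than at 8 h, their promoters were read from the RefSeq table for GRCh38.p14, which gives 250 bases before and 50 bases after a start site and held 40 of the 46 genes. Capitals mark a match to GAAANNGAAA, the repeated half-site of interferon-stimulated response elements, on either strand, a motif added after the values were seen. The window of PSME1 is chr14:24135944-24136243 (plus strand), that of PSME2 chr14:24146561-24146860 (minus strand) and that of PSMB10 chr16:67936801-67937100 (minus strand), each printed 5′ to 3′ on the strand of the gene.
PSME1: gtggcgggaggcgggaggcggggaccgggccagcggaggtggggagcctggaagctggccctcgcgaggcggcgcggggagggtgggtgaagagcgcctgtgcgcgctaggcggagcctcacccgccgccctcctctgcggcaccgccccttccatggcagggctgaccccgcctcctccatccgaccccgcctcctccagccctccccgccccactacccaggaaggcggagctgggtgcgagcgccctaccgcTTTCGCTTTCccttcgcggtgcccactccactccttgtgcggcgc
PSME2: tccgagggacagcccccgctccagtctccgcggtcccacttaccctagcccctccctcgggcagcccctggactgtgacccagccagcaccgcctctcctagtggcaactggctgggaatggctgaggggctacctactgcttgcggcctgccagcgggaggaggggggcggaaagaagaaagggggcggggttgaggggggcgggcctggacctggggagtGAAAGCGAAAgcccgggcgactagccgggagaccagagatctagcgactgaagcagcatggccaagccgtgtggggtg
PSMB10: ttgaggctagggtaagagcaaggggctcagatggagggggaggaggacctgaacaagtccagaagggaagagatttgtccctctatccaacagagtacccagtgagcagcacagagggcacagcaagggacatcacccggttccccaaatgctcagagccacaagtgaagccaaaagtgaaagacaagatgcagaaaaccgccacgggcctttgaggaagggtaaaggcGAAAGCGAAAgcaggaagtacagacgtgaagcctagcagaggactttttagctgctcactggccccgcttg
The match began 28 bases before the first transcribed base in PSME2 and 21 before it in PSMB10, on the strand of the gene, and 5 bases after it in PSME1, on the other strand. GAAANNGAAA was held by 6 of 40 members (15%) and by 4.38% of 27305 genes with a window. The motif was chosen for PSMB10, PSME1 and PSME2, which are among these 6. The share of members was thus partly set by that choice, and no excess can be read from it. The other members with a match were PSMA4, PSMB4 and PSMG4. PSMA4 had the same order of groups, with a change of -0.07 at 8 h that did not pass and a level higher by 0.19 at 24 h than at 8 h (edgeR adjusted p = 0.000175). PSMB4 fell at 8 h (-0.13), and its 24 h level did not pass against 8 h (0.04). PSMG4 rose at 8 h and was lower at 24 h than at 8 h. PSMD10 and PSMG2 also fell at 8 h and were higher at 24 h than at 8 h, and their windows held no match.

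The promoters were also searched, on both strands, for TGACNNNGC and TGAGNNNGC, the core of the antioxidant response element. NFE2L1 induces proteasome genes through this element, and NFE2L2 binds it too. Either form was held by 21 of 40 members (52.5%) and by 33.7% of all genes. PSMA7, PSMB1, PSMB6, PSMB7, PSMD4 and PSMG3 had no window. The 3 members with a match that had the highest mean CPM, not corrected for length, are shown with the match in capitals. They are PSMD1 at chr2:231056617-231056916 (plus strand), PSMB5 at chr14:23034851-23035150 (minus strand, the first of 2 start sites in the table) and PSMC5 at chr17:63827471-63827770 (plus strand), all in GRCh38.p14.
PSMD1: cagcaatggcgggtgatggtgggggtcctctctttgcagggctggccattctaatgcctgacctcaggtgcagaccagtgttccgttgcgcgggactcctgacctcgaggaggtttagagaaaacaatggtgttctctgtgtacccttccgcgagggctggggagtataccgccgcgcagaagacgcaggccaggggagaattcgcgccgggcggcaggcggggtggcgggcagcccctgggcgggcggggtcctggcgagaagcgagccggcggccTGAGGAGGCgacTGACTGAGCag
PSMB5: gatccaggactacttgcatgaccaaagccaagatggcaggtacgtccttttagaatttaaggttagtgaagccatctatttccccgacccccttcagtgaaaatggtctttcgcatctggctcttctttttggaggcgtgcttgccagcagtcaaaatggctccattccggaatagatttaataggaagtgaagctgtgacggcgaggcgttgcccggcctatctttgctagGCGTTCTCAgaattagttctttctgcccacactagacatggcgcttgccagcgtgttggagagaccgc
PSMC5: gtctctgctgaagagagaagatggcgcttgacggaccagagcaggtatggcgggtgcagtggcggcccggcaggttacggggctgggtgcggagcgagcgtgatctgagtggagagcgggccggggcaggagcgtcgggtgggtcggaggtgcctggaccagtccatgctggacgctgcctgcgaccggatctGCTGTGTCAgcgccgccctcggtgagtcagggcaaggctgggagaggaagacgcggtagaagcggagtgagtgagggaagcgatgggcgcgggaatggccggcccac
These 3 genes did not share a course, since PSMD1 rose at both times, PSMC5 at 8 h and PSMB5 at 24 h. PSMD3, which fell at 24 h against both other groups, and PSME1 and PSME2, which fell at 8 h, held a match as well. At 24 h PSME2 rose against untreated cells. CCGGAAG, the core of ETS factor sites, was in 37.5% of members and 12.2% of all genes, CCAAT, bound by NF-Y, in 47.5% and 39.7%, and TGACTCA or TGAGTCA, the AP-1 site, in 7.5% and 6.05%. An AP-1 match followed by GC is also a match to the response element core. A match is a run of letters and not a shown site.

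Compared per kilobase of canonical transcript in untreated cells, the members covered a wide range. The beta ring had the highest median, 252.5 CPM per kb over 7 genes, from PSMB2 at 49.3 to PSMB4 at 320 CPM per kb. PSMA7 was the highest of all, at 448 ± 11.7 CPM per kb (SD, n = 3). The medians were 81.8 CPM per kb over 4 alpha genes without heavy overlap, 76.6 over the base, 89.9 over the lid, 30.4 over the core chaperones and 25.7 over 2 base chaperones. PSMB6, PSMB7 and PSMB5 followed each other at 258 ± 2.39, 252.5 ± 12.6 and 215 ± 1.83 CPM per kb in untreated cells, where PSMB6 and PSMB7 did not differ beyond their spread. Genes such as PSMB2 with long 3′ ends rank lower if most reads come from shorter transcripts.

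Of 14 other proteasome parts, 2 rose and 7 fell at 8 h and 3 rose and 6 fell at 24 h (median log2 fold change -0.10 and -0.06). Over all genes, 25.2% rose and 24.5% fell at 8 h, and 25.7% and 26.8% did so at 24 h. Beside ADRM1, SEM1, POMP, PSMB8 and PSMB9, the calls of this list at 24 h included PAAF1, an ATPase-binding chaperone (0.35), and AKIRIN2, which brings proteasomes into the nucleus (-0.33). Among 10 genes listed for the control of proteasome genes by NFE2L1, with the related factor NFE2L2 included, 1 rose and 2 fell at 8 h. At 24 h, 3 of them rose and 4 fell. The all-gene shares were again 25.2% and 24.5% at 8 h, and 25.7% and 26.8% at 24 h. NFE2L1 itself was at 437, 421 and 418 CPM untreated, 419, 427 and 432 CPM at 8 h, and 479, 497 and 477 CPM at 24 h, with no call at 8 h (0.00) and a rise of 0.19 ± 0.03 at 24 h (adjusted p = 0.000279). NGLY1, which deglycosylates it, rose at 24 h as well (0.21), and DDI2, the protease that releases it, passed at neither time (0.04 and 0.04). MAFG, a small partner protein, rose at 8 h (0.12) and fell at 24 h (-0.11, edgeR adjusted p = 0.0297). Its 8 h call was lost without untreated replicate 3 (0.0868), 8 h replicate 2 (0.128) or 8 h replicate 3 (0.0688). Its 24 h call was lost without untreated replicate 2 (0.102), 24 h replicate 1 (0.073) or 24 h replicate 3 (0.0808), and with upper-quartile factors (0.0891) or total counts alone (0.29). MAFF, another small partner, fell at both times (-0.58 and -0.53). NFE2L2 also fell at both times (-0.19 and -0.11, edgeR adjusted p = 0.000231 and 0.0123).

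Around the proteasome, 1 of 15 ubiquitin and delivery genes rose and 5 fell at 8 h, and 3 rose and 4 fell at 24 h. Over all genes, 25.2% rose and 24.5% fell at 8 h, and 25.7% and 26.8% did so at 24 h. SQSTM1 (p62), a receptor that carries ubiquitinated cargo to autophagy, was at 1218, 1128 and 1120 CPM untreated, 772, 760.0 and 766 CPM at 8 h, and 725, 776 and 713 CPM at 24 h. It had the largest fall of the list, by 0.59 ± 0.04 and 0.65 ± 0.04 (adjusted p = 3.05e-08 and 5.53e-09). RPS27A, a ubiquitin-ribosome fusion gene, rose at 8 h (0.12, edgeR adjusted p = 0.011), a call lost without 8 h replicate 2 (0.0568). Of the 9 genes of the COP9 signalosome, a complex built like the lid, 2 rose and 4 fell at 8 h, and 2 rose and 2 fell at 24 h. The all-gene shares were again 25.2% and 24.5% at 8 h, and 25.7% and 26.8% at 24 h. Within the signalosome COPS4 fell furthest (-0.28 and -0.52), COPS7A was highest at 8 h (0.21) and COPS2 at 24 h (0.16). The COPS2 libraries at 24 h overlapped the untreated ones, and its call (edgeR adjusted p = 0.0263) was lost without untreated replicate 1 (0.0793), 24 h replicate 1 (0.0915) or 24 h replicate 3 (0.128).

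Of 8 heat shock genes, 6 rose and 2 fell at 8 h, and 1 rose and 4 fell at 24 h. Over all genes, 25.2% rose and 24.5% fell at 8 h, and 25.7% and 26.8% did so at 24 h. HSPA1A was at 3.09, 4.22 and 4.92 CPM untreated, 11.6, 11 and 12.4 CPM at 8 h, and 5.27, 6.2 and 4.14 CPM at 24 h, and rose by 1.51 ± 0.14 at 8 h (adjusted p = 5.62e-07). HSPA1A and HSPA1B are near-identical copies, so the split of reads between them is uncertain. HSP90AA1 was the gene that rose at 24 h (0.17, adjusted p = 0.0197), a call lost without untreated replicate 1 (0.09, adjusted p = 0.0528) or 24 h replicate 1 (0.16, adjusted p = 0.0745). HSPB1 was the lowest at both times (-0.49 and -0.52). The 8 h libraries also had a larger share of counts on mitochondrial genes, from 3.61% to 4.02%, against 1.79% to 2.91% in untreated cells and 1.89% to 2.02% at 24 h. With those genes left out of library sizes, 9 members rose and 12 fell at 8 h, and 6 rose and 19 fell at 24 h. The share of all genes called in this setting was not computed. Of 5 proliferation genes, MKI67 (0.48) and TOP2A (0.42) rose and PCNA (-0.28) fell at 8 h, and TOP2A (0.18) rose and CCNB1 (-0.28) and CDK1 (-0.20) fell at 24 h. The part of cell growth in the proteasome values was not tested.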

How the data were processed

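RNA of MDA-MB-231 cells was sequenced as stranded, paired-end mRNA libraries. The deposited table holds raw read counts per gene, which the authors made with HISAT2 against GRCh38 and featureCounts after FastQC, per the submitters' processing notes, with tool versions not given in the sources used here. Per the study's methods, read pairs were counted by strand over exons and summed by gene name. The stated settings include no option for reads that fall on 2 genes, and by default that counter leaves them uncounted, which lowers members with overlapping neighbours. All 9 columns were matched to samples by name.

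Members and gene lists were chosen with earlier results of these data known. Genes were filtered with filterByExpr (minimum count 10), scaled by TMM and tested, two-sided, with edgeR 4.0.16 (glmQLFit, glmQLFTest) under R 4.3.3, with all 9 libraries and all 3 groups in 1 fit and no covariate. Benjamini-Hochberg adjustment ran over all 16556 genes, at 0.05. The code was tested on simulated data. SD is over 3 libraries. Replicate pairs all differed by more than sampling noise (chi-square per degree of freedom from 2.39 to 21.3), so none was merged. Depth limits precision to counting error plus the spread of libraries (biological coefficient of variation 0.0481).

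Values of every library are printed for PSMB5, PSMB6 and PSMB7, for the 4 highest and 4 lowest called members of each comparison, for members called in opposite directions at the 2 times, and for members that failed the filter. From the lists, the highest and lowest called gene at each time, POMP, ADRM1, SEM1, NFE2L1, DDI2, PSMB8 and PSMB9 are named, except 1 gene that is not reported here. PSMA7 and other named genes outside this rule were chosen after their values were seen. Gene positions, exon overlap and lengths are from GENCODE 44, and promoters from RefSeq, matched by symbol for 40 of 46 members. The study's methods name a different annotation file for the counts. Overlaps and lengths may therefore differ from the gene models that were counted. Alternatives were other scaling factors (RLE, upper quartile, total counts), DESeq2 1.42.0, other filters, a fold limit, 2 groups only, a replicate block, each library left out, mitochondrial genes left out of library sizes and, chosen after seeing the data, 5 overlapping members left out and role sums without each library.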

Additional observations from a re-analysis of the deposited data

Results flagged for a closer look

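The change from 8 h to 24 h of TEPA, which is the test of whether the effects at the 2 times differ, passed for 26 of the 44 tested proteasome genes (edgeR quasi-likelihood test, adjusted p under 0.05). Of all genes tested 26.0% were higher and 28.8% lower in this comparison, so the share over both directions is near the background. The members that passed are given as log2 differences of 24 h against 8 h. The largest fall with ample counts was in the cap base gene PSMD2 (-0.57), followed there by PSMC3 (-0.30), PSMC4 (-0.19), PSMC5 (-0.19) and PSMC1 (-0.14). In the lid the differences were -0.41 for PSMD3, -0.20 for PSMD13, -0.19 for PSMD8 and -0.16 for PSMD11. In the core rings PSMA7 differed by -0.22, PSMA5 by -0.12, PSMB6 by -0.26 and PSMB7 by -0.15, whereas PSMA4 (0.19) and PSMB5 (0.18) were higher at 24 h. The call of PSMA5 was lost without 8 h replicate 3 (edgeR adjusted p = 0.097) or 24 h replicate 3 (0.0623). With total counts alone the calls of PSMA5 (-0.05, edgeR adjusted p = 0.249), PSMB7 (-0.08, 0.111), PSMC1 (-0.06, 0.118) and PSME4 (-0.06, 0.143) were lost. PSMA2 had -1.71 on 8 to 45 counts per library. Among chaperones PSMG4 (-0.46), PSMG3 (-0.26) and PSMG1 (-0.25) were lower, and PSMD10 (0.25) and PSMG2 (0.15) higher. Of the other caps PSME3 (-0.34) and PSME4 (-0.13) were lower, and PSME1 (0.47) and PSME2 (0.39) higher, as was PSMB10 (0.79).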

How the results depend on the processing

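No call of a member, or of a gene that the naming rule picks, reversed in any setting. Over the genes that the naming rule picks, and not the other genes mentioned, 1790 values were on the same side of the threshold, 39 lost and 21 gained a call, and 37 uncalled values changed sign. Counts of members higher and lower moved beyond 1.5 times in few settings. With a fold limit of 0.5 they were 1 and 0 at 8 h, 0 and 1 at 24 h, and 1 and 2 for 24 h against 8 h. With total counts alone 13 members were higher at 24 h than at 8 h, against 7 with TMM. The members' median log2 fold change at 8 h was 0.0138 with upper-quartile factors, -0.0126 with total counts, -0.0127 with no filter and -0.0079 without the 5 overlapping members, and -0.0251 to -0.0015 with 1 library left out. At 24 h it was -0.08 with RLE factors, -0.0609 with upper-quartile factors, -0.0277 with total counts (all genes then 0.062), -0.0799 with DESeq2 and -0.0756 with at least 10 counts in every library, and -0.0905 to -0.0748 with 1 library left out. For 24 h against 8 h the median was -0.061 (RLE), -0.0608 (upper quartile), -0.0011 (total counts, all genes then 0.0559), -0.0674 (mitochondrial genes left out), -0.0611 (DESeq2), -0.0641 (no filter), -0.0569 (at least 10 counts), -0.0472 (only the 2 groups compared) and -0.0816 (without the 5 members), and -0.0799 to -0.0602 with 1 library left out. The causes were not tested. Of the 73 calls over all tested members, 17 were lost in at least 1 of the 18 settings other than the fold limit and the member exclusion, and 13 of them with 1 library left out. Same-numbered libraries did not deviate together (r from -0.08 to 0.038), so the numbers do not pair the samples. With a replicate block 8 members rose and 11 fell at 8 h, 6 and 18 at 24 h, and 7 and 19 for 24 h against 8 h. The share of all genes called with the block was not computed.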
